A study of Mus musculus with 192 samples.

Results

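The 16 hippocampal RNA libraries described here come from zQ175 mice (8 libraries) and wild-type (WT) mice (8 libraries) that had received a non-targeting control siRNA, named NTC in the labels. They were chosen by their sample group from the 192 libraries of the study, each made from 1 mouse, and every gene of the deposited count table was considered. Both groups followed the regimen 2[4]6: the mice were treated at 2 months of age and the hippocampus was collected at 6 months, from 4 females and 4 males of each genotype. RNA was selected by its polyA tail before sequencing. The zQ175 mice carry a knock-in allele of Htt, and the WT mice do not; the mice of both groups carry the control siRNA treatment, so the comparison measures genotype in treated animals. The labels do not give the number of copies of the knock-in allele, the strain background, the dose or the route of the siRNA. No label names a litter or a processing day. The library names of 2[4]6 hold a number, shared only by mice of the same genotype and sex, and a letter. The labels explain neither, and the number was not modelled. The test over all genes took its spread from all 64 libraries of 2[4]6. These include untreated mice and mice given the siRNAs labelled HTT-10150 or HTT-634.486.

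Huntington's disease is caused by an expanded run of CAG codons, which encode glutamine, in the first exon of the huntingtin gene. In the zQ175 line human sequence with a long repeat replaces part of exon 1 in the animal's own Htt gene, so the mutant protein is made wherever Htt is normally active. The striatum is the region best known to suffer in the disease, but the hippocampus also expresses Htt, and knock-in mice show synaptic and memory deficits. In the hippocampus, excitatory granule cells of the dentate gyrus project to pyramidal cells of CA3, and these to CA1, with interneurons, astrocytes, microglia, oligodendrocytes and vessels around them.

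The site that the allele alters lies in exon 1 of Htt (ENSMUSG00000029104) at chr5:34761928-34762008 of GRCm38, plus strand. The WT reference sequence of this stretch, the part of the gene in which the alleles differ, is printed 5′ to 3′ from codon 8. Capitals mark the longest unbroken run of glutamine codons, codons 18 to 24, a run of 7. A further CAG codon after the run is left in small letters.

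Htt exon 1: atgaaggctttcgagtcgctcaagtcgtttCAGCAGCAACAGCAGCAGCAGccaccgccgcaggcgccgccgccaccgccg

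Htt itself was measured first. Its level ran from 154.2 to 195.3 CPM (read counts relative to the library total scaled with TMM factors) in the WT libraries, with a median of 182.8, and from 121.5 to 174.9 CPM in the zQ175 libraries, with a median of 147.1. The groups overlapped, with 6 of 8 zQ175 libraries below every WT library. The means were 179.7 ± 13.6 CPM in WT and 146.2 ± 18.5 in zQ175 (SD, n = 8), a level 18.6% lower (two-sided exact permutation test, p = 0.00171, where the smallest possible is 0.000155). In the model fitted across all genes the log2 change was -0.29 ± 0.11 (SE) and was not called (adjusted p = 0.121); for the Htt log2 change with only the 16 NTC libraries fitted, the adjusted p was 0.00989. A separate Htt feature of the table, whose name ends in HD and whose sequence is not described in the labels, had 0 reads in the WT libraries and 23 reads over 7 of the 8 zQ175 libraries.

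Total counts were between 16.3e6 and 42.3e6 in WT libraries and between 21.2e6 and 42e6 in zQ175 libraries. Xist and the Y-linked Ddx3y matched the labelled sex in all 16. Hippocampal identity genes were present in every library: Prox1 of granule cells stood between 122.2 and 195.9 CPM, and Fibcd1 of CA1 cells had medians of 125.8 CPM in WT and 122.0 in zQ175. Transcripts of the choroid plexus, the tissue in the ventricle beside the hippocampus, set 5 libraries apart (WT female_4, male_1 and male_3, zQ175 female_1 and male_4): the summed level of 17 markers was 4052 to 6743 CPM in them and 271.5 to 520.0 CPM in the other 11. Of the striatal markers, Drd2 stood at 2.43 CPM or less, Adora2a at 2.82 or less, and Drd1 at 4.10 to 7.31 CPM in WT and 2.92 to 4.89 in zQ175 (log2 change -0.41 ± 0.13, adjusted p = 0.0593). The thalamic Tcf7l2 reached 26.1 CPM in WT female_4 and 15.6 in zQ175 female_1, and Gh of the pituitary 8.95 CPM in zQ175 male_3.

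The genotype changed many genes by small amounts. Genes that fell included Grem1, a secreted inhibitor of bone morphogenetic proteins, Otof, a calcium sensor of exocytosis, Wfs1, an endoplasmic reticulum protein of CA1 pyramidal cells, Bok, a relative of BCL-2, Neurod6, a transcription factor of pyramidal neurons, Penk, the enkephalin precursor, and Chgb, a granin of dense-core vesicles. Genes that rose included Abhd1, an abhydrolase gene near Htt, Cdhr1, a cadherin-related photoreceptor protein, Onecut1, a developmental transcription factor, and the receptors Sstr1 (somatostatin) and Trhr (thyrotropin-releasing hormone). Of 16575 genes tested, 867 were called at an adjusted p under 0.05, which is 5.23% (edgeR's quasi-likelihood test, Benjamini-Hochberg adjustment); 373 rose (2.25%) and 494 fell (2.98%). Called genes changed by a median of 0.24 in size on the log2 scale, and 20 genes changed at least 2-fold, 14 upwards. Among called genes with a symbol and a mean log2 CPM of at least 1, only Abhd1 rose that far. Only Grem1, Mylk3 and Otof fell that far. All 867 had the same sign in females and in males, but the calls were made on these same mice, so this is not separate support. The 8 zQ175 libraries did not overlap the 8 WT libraries for 58 of the raised and 111 of the lowered genes, against 1.09% of all genes tested. Of the 14931 protein-coding genes tested, 832 were called, as were 7 of 399 long intergenic and 11 of 477 antisense transcripts. In bulk tissue, fewer cells of a type and less RNA per cell cannot be told apart.

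Wfs1 (ENSMUSG00000039474, chr5:36966104-36989205) ran from 111.7 to 140.4 CPM in WT, with a median of 123.9, and from 51.02 to 82.04 CPM in zQ175, with a median of 70.7. No zQ175 mouse reached the lowest WT mouse, and the fall was 0.89 ± 0.11 on the log2 scale (adjusted p = 2.03e-07). Bok ran from 45.5 to 72.1 CPM in WT (median 58.9) and from 25.5 to 46.4 in zQ175 (median 33.8); only the edges of the groups met, and its log2 change was -0.75 ± 0.10 (adjusted p = 4.79e-07). Neurod6 was between 203.2 and 258.7 CPM in WT (median 214.7) and between 129.4 and 168.2 in zQ175 (median 154.6). Its groups lay apart, with a log2 change of -0.53 ± 0.06 (adjusted p = 1.30e-08). Pex5l, which binds the HCN pacemaker channels of pyramidal cell dendrites, had the smallest adjusted p together with Neurod6 and Abhd1. It ran from 221.5 to 262.6 CPM in WT (median 252.8) and from 181.3 to 224.7 in zQ175 (median 187.9), a log2 change of -0.37 ± 0.04. The highest zQ175 library, male_1, was the one that overlapped WT.

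**Figure D1:**
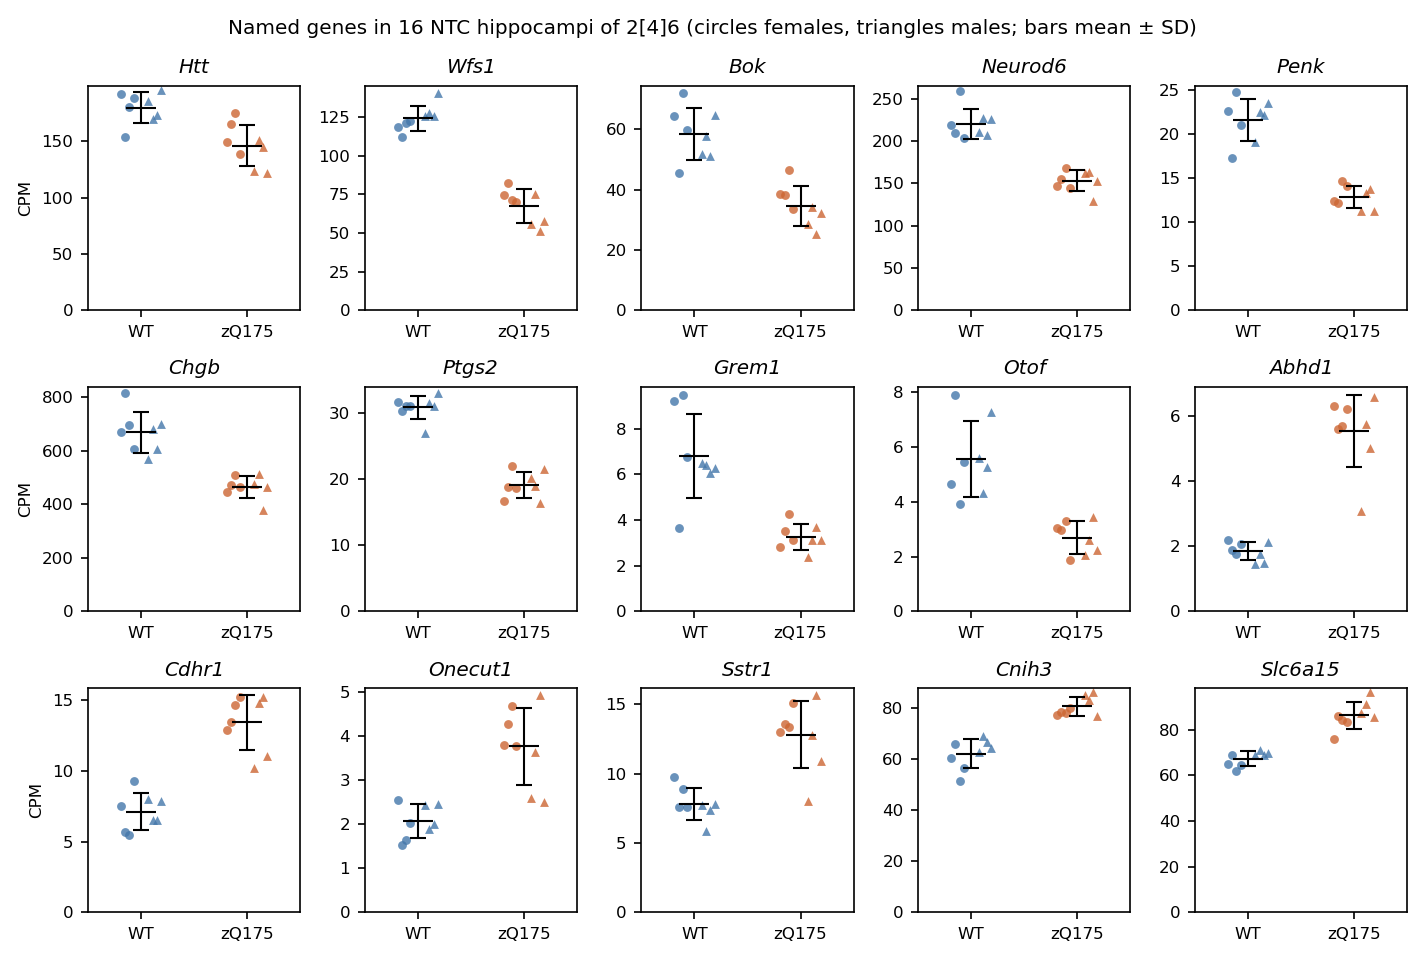
Each panel plots the level of 1 gene in CPM (vertical axis from 0) in the 8 WT and the 8 zQ175 NTC mice; circles are females, triangles males, and the bars give the mean ± SD. Wfs1, Neurod6, Penk, Chgb, Ptgs2 and Otof of zQ175 mice lie below every WT mouse, Abhd1, Cdhr1, Cnih3 and Slc6a15 above, while Htt, Bok, Grem1, Onecut1 and Sstr1 overlap.

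The 10 genes lowered most, among those with a mean log2 CPM of at least 1, fell by 0.72 to 1.06. Grem1 ran from 3.67 to 9.47 CPM in WT (median 6.46) and from 2.36 to 4.26 in zQ175 (median 3.14). A single WT mouse, the female at 3.67, lay within the zQ175 range, and the log2 change was -1.06 ± 0.14 (adjusted p = 5.45e-07). Mylk3, a myosin light chain kinase best known from heart muscle, had 3.43 ± 0.49 CPM in WT and 1.70 ± 0.39 in zQ175, and Otof, which encodes otoferlin, 5.56 ± 1.39 and 2.70 ± 0.59 (SD, n = 8), with no overlap for either gene. Cldn22, a claudin, fell by 0.93 ± 0.16 and lies within Wwc2 on the other strand; the labels state no strand for the libraries, so reads of the pair cannot be told apart. BC030499 (-0.78 ± 0.16), Ighm, the heavy chain of immunoglobulin M (-0.73 ± 0.19), and Grin2a, an NMDA receptor subunit (-0.72 ± 0.18), complete the list with Wfs1, Bok and Penk. Grin2a was not called without the 5 libraries high in choroid plexus transcripts (-0.62, adjusted p = 0.143), and neither was Ighm (-0.71, adjusted p = 0.0901).

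The 10 genes raised most, with the same limit of a mean log2 CPM of at least 1, rose by 0.60 to 1.58. Abhd1 (ENSMUSG00000006638, chr5:30950066-30955091) ran from 1.45 to 2.21 CPM in WT (median 1.84) and from 3.08 to 6.58 in zQ175 (median 5.73). Every zQ175 mouse exceeded every WT mouse, and the gene rose by 1.58 ± 0.18, or 2.99-fold (adjusted p = 1.30e-08); it overlaps Preb on the other strand, with the same limit on reads. Clec1a, a C-type lectin receptor, had 1.46 ± 0.22 CPM in WT and 2.88 ± 0.80 in zQ175, without overlap, a log2 change of 0.97 ± 0.15. Cdhr1 ran from 5.49 to 9.30 CPM in WT (median 7.01) and from 10.2 to 15.2 in zQ175 (median 14.1), again apart, with a log2 change of 0.91 ± 0.12 (adjusted p = 5.45e-07). Onecut1 had 2.07 ± 0.38 and 3.77 ± 0.88 CPM, with groups that touched, a log2 change of 0.88 ± 0.17. Trhr (0.72 ± 0.21), Sstr1 (0.71 ± 0.14), Stc1, a secreted glycoprotein (0.65 ± 0.13), Scn9a, a voltage-gated sodium channel (0.62 ± 0.18), Hes5, a Notch target (0.62 ± 0.12), and Rxrg, a retinoid X receptor (0.60 ± 0.19, adjusted p = 0.0447), followed. Rxrg, Trhr and Scn9a each lost the call when 1 or another library was left out, with the largest adjusted p at 0.109 for the Rxrg log2 change, 0.0631 for the Trhr log2 change and 0.0778 for the Scn9a log2 change.

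Slc6a15, a transporter of neutral amino acids in neurons and 1 of the 10 genes of smallest adjusted p, rose by less and with little spread. It ran from 61.8 to 71.03 CPM in WT and from 75.97 to 96.47 in zQ175, with a gap between the groups and a log2 change of 0.36 ± 0.04.

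Some markers of the hippocampal fields fell. Of 18 dentate granule cell markers 5 fell (27.8%, against 2.98% of all genes) and 0 rose, with a median log2 change of -0.19 over all 18 (-0.0027 over all genes tested). Plk5, a polo-like kinase without a mitotic role, stood at 27.35 ± 5.12 CPM in WT and 18.02 ± 2.80 in zQ175, a log2 change of -0.60 ± 0.13, and Trpc6, a cation channel, changed by -0.40 ± 0.11; Prox1, the factor that defines granule cells, had a log2 change of 0.09 ± 0.08 (adjusted p = 0.622). In CA1 pyramidal cells, 2 of 12 markers fell (16.7%, against the same 2.98%), Wfs1 and the mannosidase Man1a (-0.29 ± 0.07), while Fibcd1 changed by -0.04 ± 0.09 (adjusted p = 0.895). Of 19 CA3 and CA2 markers, 4 fell (21.1%) and 0 rose: Bok, the cadherin Cdh24 (-0.72 ± 0.10), Ccdc3 (-0.46 ± 0.08) and the adhesion molecule Nectin3 (-0.33 ± 0.07), with a median log2 change of -0.16. Cdh24, at 13.7 ± 1.12 CPM in WT and 8.35 ± 1.48 in zQ175, had no overlap between the groups. For granule cells the number fell to 1 without the 5 libraries high in choroid plexus transcripts, and to 3 without any 1 of WT female_1, female_4 or male_4 or zQ175 female_1, female_2, male_1 or male_4. For CA1 and for CA3 and CA2 it stayed at 2 and 4 without the 5 libraries. With the choroid plexus level as a covariate the numbers lowered were 7 for granule cells, 3 for CA1 and 5 for CA3 and CA2.

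Among 28 neuropeptide and granin genes 4 fell and 0 rose (14.3% lowered, against 2.98% of all genes). Penk ran from 17.3 to 24.8 CPM in WT (median 22.3) and from 11.3 to 14.7 in zQ175 (median 12.9); the groups lay apart, and the log2 change was -0.75 ± 0.10 (adjusted p = 1.71e-06). Chgb ran from 569 to 816 CPM in WT (median 676) and from 381 to 512 in zQ175 (median 469), also apart, with a log2 change of -0.52 ± 0.06 (adjusted p = 5.80e-08). The other 2 were enzymes that process prohormones, Pcsk2 (-0.16 ± 0.04) and carboxypeptidase E, Cpe (-0.14 ± 0.03). Of 28 neuropeptide receptors, 2 rose and 2 fell (7.14% each, against 2.25% of all genes raised and 2.98% lowered), with a median log2 change of 0.05 over the 28: beside Sstr1 and Trhr, the delta opioid receptor Oprd1 changed by -0.44 ± 0.13 and the somatostatin receptor Sstr4 by -0.45 ± 0.13. Sstr1 ran from 5.85 to 9.76 CPM in WT and from 8.03 to 15.7 in zQ175, so that its groups overlapped. Without the 5 libraries high in choroid plexus transcripts 2 of the peptide genes and 1 of the receptors were called. With the choroid plexus level as a covariate 4 peptide genes and 3 receptors fell, and 2 receptors rose. The number of receptors lowered was 0 without WT female_1, female_3, male_1 or male_4 or zQ175 male_4, and 1 without zQ175 female_1, female_4, male_1 or male_3; the number raised was 1 without WT female_1 or female_4 or zQ175 male_3.

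Of 36 genes of calcium handling, 11 fell and 0 rose (30.6%, against 2.98% of all genes lowered), and 30 had a negative sign (median log2 change -0.13). Atp2b1, the plasma membrane calcium pump, ran from 950.2 to 1073 CPM in WT (median 1024) and from 732 to 841 in zQ175 (median 762). The gap between the groups was wide against their spread, and the log2 change was -0.39 ± 0.05 (adjusted p = 9.19e-07). Itpka, an inositol trisphosphate kinase of dendritic spines, had 215.7 ± 13.4 CPM in WT and 162.6 ± 14.4 in zQ175 (SD, n = 8), a log2 change of -0.41 ± 0.06, and the calcium pump of the endoplasmic reticulum, Atp2a2, changed by -0.26 ± 0.05. The inositol trisphosphate receptor Itpr1, the neuronal sensor Hpca, the kinases Camkk1 and Camkk2, the pump Atp2b2 and the channel subunits Cacnb2 and Cacna2d3 were among the other members that fell, by 0.16 to 0.29. Without the 5 libraries high in choroid plexus transcripts 5 of the 36 fell, and with the choroid plexus level as a covariate 13 fell.

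Of 35 genes of the presynaptic vesicle machinery, 9 fell and 0 rose (25.7% lowered, against 2.98% of all genes; median log2 change -0.08): Otof, the synaptotagmins Syt1, Syt7 and Syt12, Snap25, Syn3, Unc13b and the active zone scaffolds Bsn and Pclo. Syt12 had 31.5 ± 2.25 CPM in WT and 25.2 ± 2.66 in zQ175, a log2 change of -0.32 ± 0.05 (adjusted p = 2.37e-05), and Snap25, a vesicle fusion protein, had a log2 change of -0.19 ± 0.04. Among 27 postsynaptic scaffolds and kinases 5 fell (18.5%) and 0 rose: Dlgap1 (-0.20 ± 0.04, no overlap between the groups), Homer3 (-0.41 ± 0.09), the kinase subunits Camk2a (-0.31 ± 0.07) and Camk2b (-0.19) and Sipa1l1 (-0.22 ± 0.07). Of 18 AMPA and kainate receptor genes 3 were called (16.7%, against 5.23% of all genes): Gria1 (-0.26 ± 0.06) and Gria2 (-0.18 ± 0.05) fell, while Cnih3, an auxiliary subunit, rose from 62.0 ± 5.73 CPM in WT to 80.5 ± 3.62 in zQ175, a log2 change of 0.38 ± 0.06 without overlap (adjusted p = 5.56e-06). Grin2a was the 1 gene called of 7 NMDA receptor genes (14.3%), and of 7 metabotropic receptors 0 were called, with all 7 signs negative (Grm7 at -0.14 ± 0.05, adjusted p = 0.0655). Of 15 GABA-A receptor genes 2 fell (13.3%), the extrasynaptic subunits Gabra5 (-0.21 ± 0.05) and Gabrd (-0.33 ± 0.09), and all 15 had negative signs. Without the 5 libraries high in choroid plexus transcripts the lowered counts were 4 for the presynaptic list, 2 for the postsynaptic list and 0 for GABA-A receptors. With the choroid plexus level as a covariate they were 10, 7 and 2. Leaving out zQ175 male_4 alone gave 4 and 3 for the presynaptic and postsynaptic lists, and WT female_1 or female_4 or zQ175 male_3 gave 5 and 3. For the postsynaptic list 3 were also left without WT male_3 or male_4 or zQ175 female_1 or male_1.

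Of 43 potassium channel genes 6 fell and 2 rose (18.6% called, against 5.23% of all genes; median log2 change -0.12). Kcna1, an axonal channel that limits firing, changed by -0.25 ± 0.05 and Kcnn2, a calcium-activated channel, by -0.19 ± 0.04, while Kcnk2, a two-pore leak channel, changed by 0.17 ± 0.04 and Kcng1 by 0.29. Without WT male_4 or zQ175 male_1 the number lowered was 3, and without WT female_4 or zQ175 female_4 or male_3 the number raised was 1. In the sodium channel list Scn4b, an auxiliary subunit known from the striatum, fell by 0.68 ± 0.15 with no overlap, beside the rise of Scn9a. Receptors and enzymes upstream of cAMP and the MAP kinases included the serotonin receptor Htr2a (-0.63 ± 0.12), the muscarinic receptor Chrm3 (-0.31 ± 0.07), the adenylyl cyclases Adcy1 (-0.37 ± 0.09) and Adcy9 (-0.39 ± 0.11), the exchange factor Rasgrp1 (-0.42 ± 0.07, adjusted p = 1.38e-05) and the neurotrophin receptor Ntrk2 (-0.15 ± 0.04). The kinase Mapk3 rose by 0.17 ± 0.04. In all, 4 of 42 cAMP and G protein genes fell (9.52%, against 2.98% of all genes), and of 29 MAP kinase genes 4 fell and 1 rose (17.2% called); without zQ175 male_4, 2 of the latter fell. With the 5 libraries high in choroid plexus transcripts left out, 4 potassium channel genes, 1 sodium channel gene, 2 cAMP and G protein genes and 1 MAP kinase gene fell, and 0 members of these lists rose. With the choroid plexus level as a covariate, 7, 3, 6 and 6 fell and 2, 1, 0 and 1 rose.

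Activity-regulated genes are transcribed within minutes of neuronal firing. Of 30, 4 fell and 0 rose (13.3% lowered, against 2.98% of all genes), 29 had a negative sign, and the median log2 change was -0.27, against -0.0027 over all genes. Ptgs2, the inducible cyclooxygenase, ran from 26.96 to 33.14 CPM in WT (median 31.15) and from 16.47 to 21.95 in zQ175 (median 18.9). The groups were apart in both sexes, with a log2 change of -0.69 ± 0.09 (adjusted p = 2.14e-07). Bdnf, the neurotrophin, had 59.1 ± 6.28 CPM in WT and 46.4 ± 5.10 in zQ175, a log2 change of -0.35 ± 0.07, Homer1 changed by -0.27 ± 0.07 and Nptx2, a secreted pentraxin, by -0.34 ± 0.11. The fastest members varied more between mice and were not called: Fos had a log2 change of -0.21 ± 0.31, Arc of -0.51 ± 0.21 (adjusted p = 0.147) and Egr2 of -1.05 ± 0.39 (adjusted p = 0.106). The number lowered was 8 without zQ175 female_4, 9 with the choroid plexus level as a covariate and 2 without the 5 libraries high in choroid plexus transcripts. Among 30 chaperones 3 fell (10.0%, or 2 without those libraries), Hspa1b (-0.55 ± 0.10), Hspa1a (-0.31 ± 0.07) and Dnaja4 (-0.13 ± 0.04); Hspa1a and Hspa1b are near-identical copies, and how their reads were divided is uncertain.

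Sterol synthesis, which supplies the cholesterol of neuronal and glial membranes, is switched on by SREBP2 when cell cholesterol is low. Of its 26 genes, 8 fell and 0 rose (30.8%, against 2.98% of all genes lowered), 20 had a negative sign, and the median log2 change was -0.14. Hmgcs1, an early enzyme of the mevalonate pathway, ran from 195 to 234 CPM in WT (median 209.5) and from 165 to 197 in zQ175 (median 182). The highest zQ175 mouse stood just inside the WT range, and the log2 change was -0.22 ± 0.05 (adjusted p = 0.00561). Hsd17b7, a late enzyme, ran from 22.4 to 25.9 CPM in WT and from 19.6 to 21.8 in zQ175, so its groups did not overlap despite a log2 change of only -0.20 ± 0.05. Insig1, which holds SREBP2 back, changed by -0.29 ± 0.08, Idi1 by -0.21 ± 0.06, Msmo1 by -0.20 ± 0.06 and Srebf2, which encodes SREBP2, by -0.15 ± 0.05 (adjusted p = 0.0491). The count was 4 without WT female_3, zQ175 female_3 or zQ175 male_4, and 2 without the 5 libraries high in choroid plexus transcripts. With the choroid plexus level as a covariate it was 11. Of 17 fatty acid synthesis genes 2 fell (11.8%), Acsl3 (-0.27 ± 0.04, no overlap) and Scd2 (-0.12 ± 0.04); 1 fell when any library other than WT male_4 or zQ175 male_1 was left out.

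Promoters are shown for Hmgcs1 and Hsd17b7, the sterol genes whose levels were given above by their range. They were taken from the lowered sterol genes whose windows held the most matches to the motifs below, so their match numbers need not be typical. The windows are from RefSeq (GRCm38.p6), 250 bases before to 50 bases after the start. Capitals mark 2 short motifs searched on both strands that do not overlap each other: CCAAT, the letters read by NF-Y (on the opposite strand they read ATTGG), and the core of a sterol regulatory element, CACCCCAC. Of the 8 sterol genes that fell, 6 had a window in the table, all 6 held CCAAT and 1 held CACCCCAC. Over the list 16 of 18 windows held CCAAT and 2 held CACCCCAC, against 41.1% and 3.3% of 27025 genes. A match is a description of letters, not a site shown to be bound. The Hmgcs1 window is chr13:119690101-119690400 (plus strand) and the Hsd17b7 window chr1:169969156-169969455 (minus strand).

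Hmgcs1: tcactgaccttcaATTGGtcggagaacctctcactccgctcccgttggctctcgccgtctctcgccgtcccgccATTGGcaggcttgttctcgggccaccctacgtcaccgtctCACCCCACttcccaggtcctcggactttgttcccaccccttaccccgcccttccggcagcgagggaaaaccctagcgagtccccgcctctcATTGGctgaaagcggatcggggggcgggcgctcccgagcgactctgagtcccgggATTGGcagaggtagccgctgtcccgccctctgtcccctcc
Hsd17b7: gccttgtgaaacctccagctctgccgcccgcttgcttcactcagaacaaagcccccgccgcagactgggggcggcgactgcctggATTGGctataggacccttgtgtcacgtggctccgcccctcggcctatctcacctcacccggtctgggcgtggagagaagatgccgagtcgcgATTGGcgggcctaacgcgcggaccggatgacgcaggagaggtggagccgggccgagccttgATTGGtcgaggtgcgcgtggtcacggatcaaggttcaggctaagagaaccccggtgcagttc

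Hmgcs1 holds 4 CCAAT letters, all on the other strand, and Hsd17b7 holds 3, also on the other strand.

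Of 20 astrocyte markers 4 fell and 1 rose (25.0% called, against 5.23% of all genes). Slc1a2, the main glutamate transporter, went from a median of 2436 CPM in WT to 2106 in zQ175, without overlap (log2 change -0.24 ± 0.05, adjusted p = 0.000883), and Slc4a4 (also among the granule cell markers) and glutamine synthetase, Glul, also fell, while S100b rose from 90.1 ± 9.22 to 112.8 ± 14.5 CPM (0.33 ± 0.07). Without the 5 libraries high in choroid plexus transcripts 3 fell and 0 rose, and with the choroid plexus level as a covariate 5 fell and 1 rose. All 21 homeostatic microglia markers had a positive sign (median log2 change 0.12), and 1 of them rose (4.76%, against 2.25% of all genes raised), Tmem119, from 18.4 ± 1.38 to 21.7 ± 1.55 CPM (0.24 ± 0.05); without the 5 libraries 0 were called. Of 20 activated microglia genes, 25 interferon-stimulated genes and 24 oligodendrocyte genes 0 were called with edgeR; their smallest adjusted p belonged to Csf1 (0.12 ± 0.05, adjusted p = 0.130), Rtp4 (0.48 ± 0.20, adjusted p = 0.154) and Mal (-0.28 ± 0.11, adjusted p = 0.117). Of 26 interneuron markers 2 fell and 0 rose (7.69% lowered, against 2.98% of all genes), Lamp5 (-0.30 ± 0.08) and the GABA-synthesising enzyme Gad2 (-0.21 ± 0.07). There were 22 negative signs, and the number lowered ran from 1 to 3 when 1 library was left out. Of 23 developmental transcription factors that could be tested, Onecut1 and Onecut2 (0.43 ± 0.12) rose (8.7%, against 2.25% of all genes raised).

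**Figure D2:**
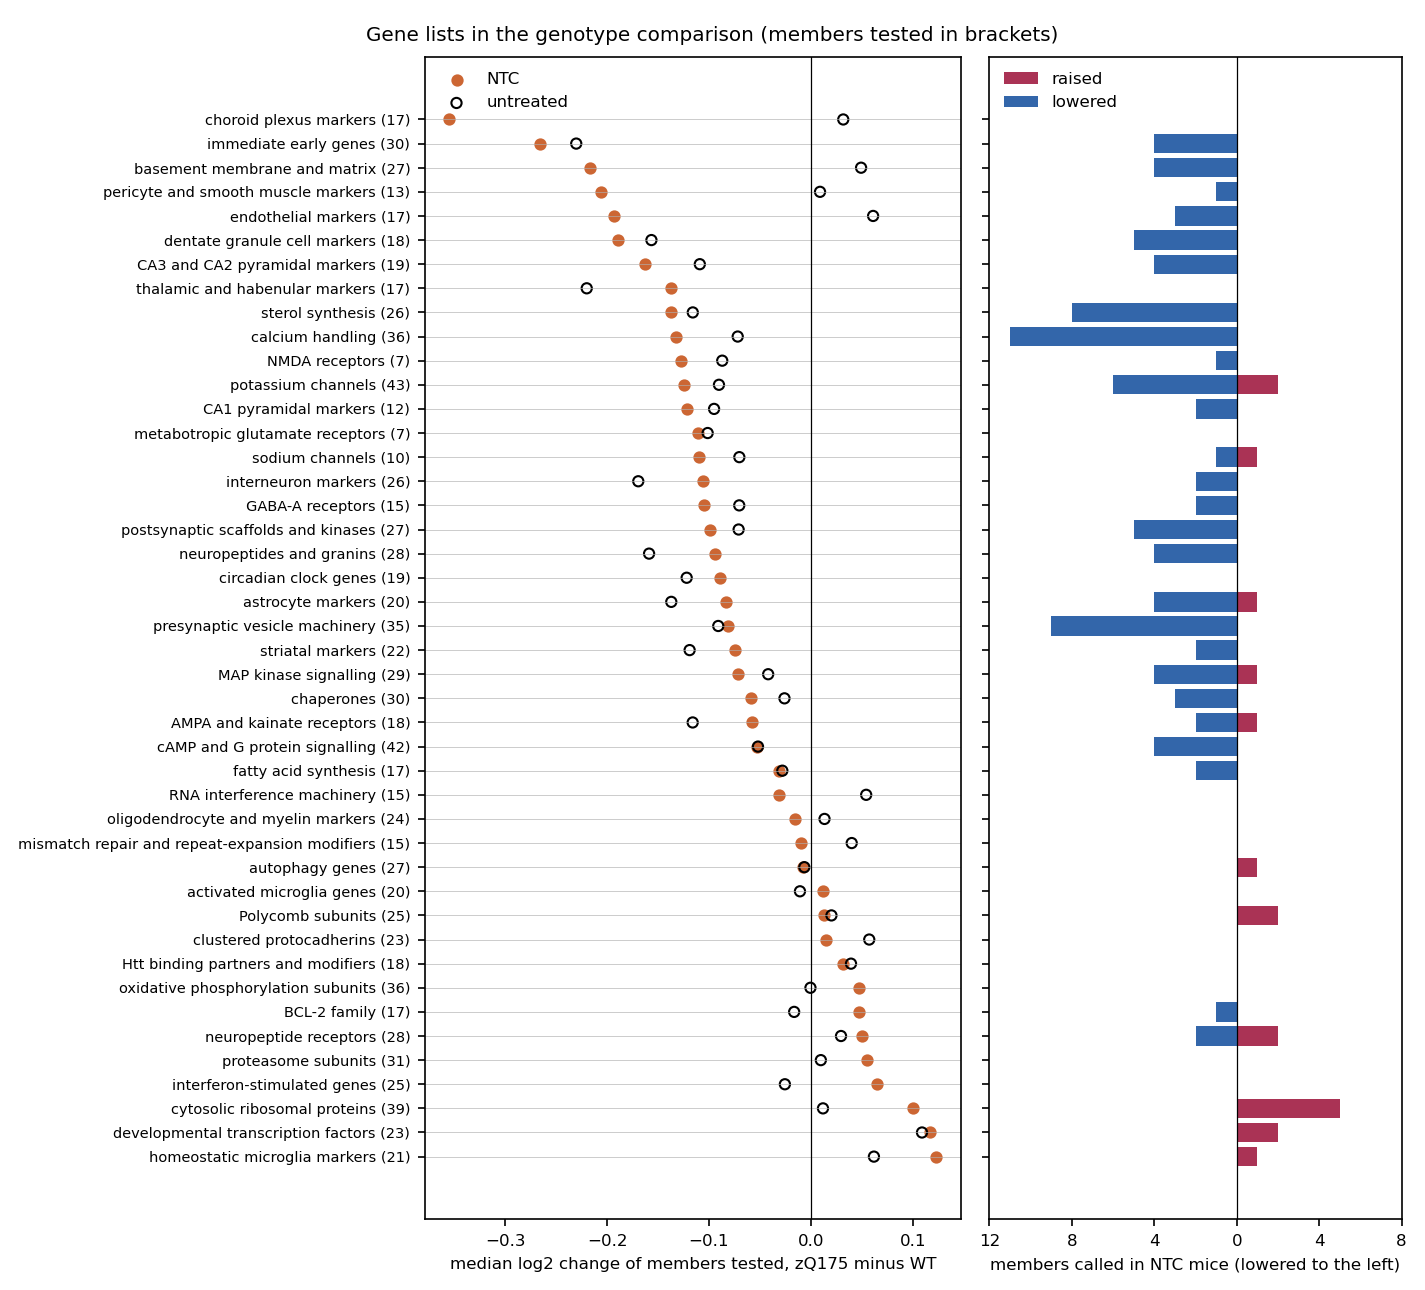
The left panel gives the median log2 change of the members tested, zQ175 minus WT, for each list (filled points NTC mice, open circles untreated mice), and the right panel the number of members called raised (to the right) or lowered (to the left) in NTC mice. Calcium handling has 11 lowered members and sterol synthesis 8; endothelial, pericyte and matrix lists lie below 0 in NTC mice and above 0 in untreated mice.

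The vessel and matrix genes that were called had all fallen. Of 17 endothelial markers 3 fell (17.6%, against 2.98% of all genes), and all 17 had a negative sign (median log2 change -0.19): Pecam1, an adhesion molecule of the vessel wall, had 16.5 ± 1.41 CPM in WT and 13.3 ± 1.51 in zQ175 (-0.31 ± 0.07), Kdr, a receptor for VEGF, changed by -0.27 ± 0.07 and Abcb1a, the efflux pump of the blood-brain barrier, by -0.28 ± 0.09. Of 13 pericyte and smooth muscle markers 1 fell (7.69%), Rgs5 (-0.21 ± 0.07, adjusted p = 0.0487), with 12 negative signs. Of 27 basement membrane and matrix genes 4 fell (14.8%), the collagens Col4a1 (-0.24 ± 0.07) and Col4a2 (-0.27 ± 0.08), fibronectin Fn1 (-0.28 ± 0.08) and Frem3 (-0.65 ± 0.21). The same lists in untreated mice of this age had medians of 0.06, 0.0090 and 0.05 with 0 called. The test of the difference between NTC and untreated mice called 0 of these genes, while 7 of the 17 endothelial markers, and 411 of all 16575 genes, had an unadjusted p under 0.05 in it. Choroid plexus markers, with 0 of 17 called, had a median of -0.36 in NTC and 0.03 in untreated mice, and their part in the vessel result was not tested. Without the 5 libraries high in them 0 endothelial, 0 pericyte and 0 matrix genes were called; with their level as a covariate 3, 1 and 4 were. Leaving out zQ175 female_4 alone gave 1 endothelial and 0 matrix calls, leaving out zQ175 male_3 gave 0 matrix calls, the pericyte count ran from 0 to 2 over the 16 libraries, and 10 of the 16 libraries, left out in turn, cut the matrix count to 2 or fewer.

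Cytosolic ribosomal protein genes, which have short transcripts, rose in 5 of 39 cases (12.8%, against 2.25% of all genes), and all 39 had a positive sign (median log2 change 0.10). Rps3 had 261 ± 22.9 CPM in WT and 294.9 ± 19.01 in zQ175 (0.17 ± 0.04), and Rps2, Rpl3, Rps9 and Rpl11 rose by 0.13 to 0.16; these genes have many pseudogene copies that could share reads. In untreated mice the median was 0.01 with 0 called. The number raised was 16 without WT female_3, 8 without zQ175 female_1 and 0 without the 5 libraries high in choroid plexus transcripts. With the choroid plexus level as a covariate it was 5. The median transcript length of the ribosomal list was 658 bases and that of the endothelial list 2039.5 bases, against 1536 over all genes. Across 16449 genes the log2 change had a Spearman correlation with length of -0.17 in NTC mice and -0.0066 in untreated mice (genes are not independent replicates). With genes split by length into 5 groups of about equal size, from the shortest group to the longest the median change went from 0.02 to -0.03 in NTC mice, and the calls went from 82 raised and 63 lowered to 49 raised and 160 lowered. A library's deviation from the mean correlated with length at -0.07 to 0.14 in WT (median 0.09) and at -0.21 to 0.10 in zQ175 mice (median -0.06). The groups overlapped, but their medians had opposite signs. With the length trend taken out of every library, 870 genes were called (396 raised, 474 lowered), of which 758 were among the 867 in the same direction, and the ribosomal and endothelial medians were 0.08 and -0.19. Other lists moved more: NMDA receptors from -0.13 to -0.09, potassium channels from -0.12 to -0.09 and matrix genes from -0.22 to -0.16. Sterol synthesis stayed at -0.14, and the CA3 and CA2 markers went from -0.16 to -0.17.

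**Figure D3:**
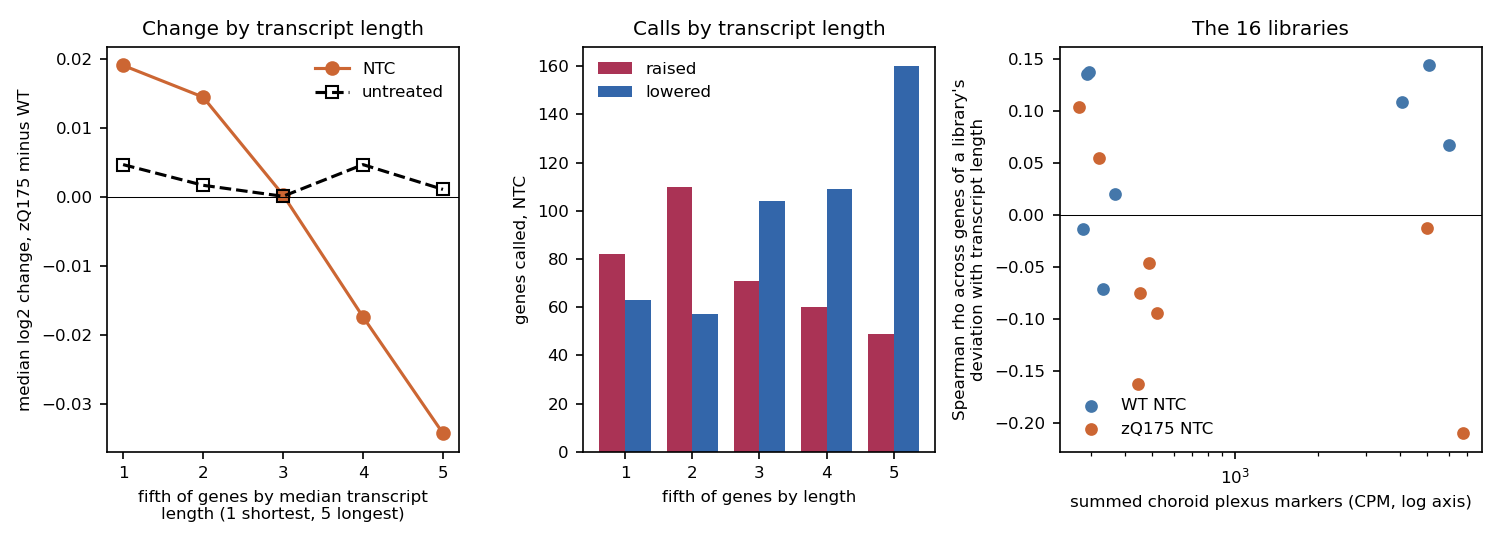
Left: median log2 change, zQ175 minus WT, in 5 groups of genes by median transcript length (filled points NTC, open squares untreated). Middle: genes called raised and lowered in NTC mice per group; lowered calls rise to 160 in the longest group. Right: for each library the summed choroid plexus markers (log axis) and the Spearman correlation across genes of its deviation from the mean with length; 5 libraries lie above 4000 CPM.

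Genes near Htt held some of the largest changes. Of 164 genes tested that start within 10 Mb of Htt, 15 were called (9.15%, 7 raised and 8 lowered), against 3.77% of 850 genes on the rest of chromosome 5 and 5.3% of 15434 genes on other chromosomes; within 5 Mb 12 were called (9.92%). Of the 20 genes changed at least 2-fold, 3 lay in this window. Called genes with a log2 change of at least 0.5 in size were Otof (start at -4.39 Mb from that of Htt), Abhd1 (-3.81 Mb), Wfs1 (2.20 Mb) and 5031410I06Rik (-8.66 Mb). Otof (chr5:30367062-30461932) ran from 3.93 to 7.90 CPM in WT (median 5.36) and from 1.88 to 3.46 in zQ175 (median 2.79), apart, with a log2 change of -1.02 ± 0.16 (adjusted p = 7.15e-06). 5031410I06Rik was at 0.13 CPM or less in WT and at 0.83 or less in zQ175, with overlap, and lost its call in 5 of the 16 fits without 1 library; with so few reads its fitted log2 change of 2.91 depends on the prior count. The window also holds Insig1 and Drc1, a dynein regulatory subunit of cilia (0.35 ± 0.10). Called genes lay on both sides of zero and between uncalled neighbours. Sequence differences linked to the knock-in allele cannot be told apart from its action in these data.

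**Figure D4:**
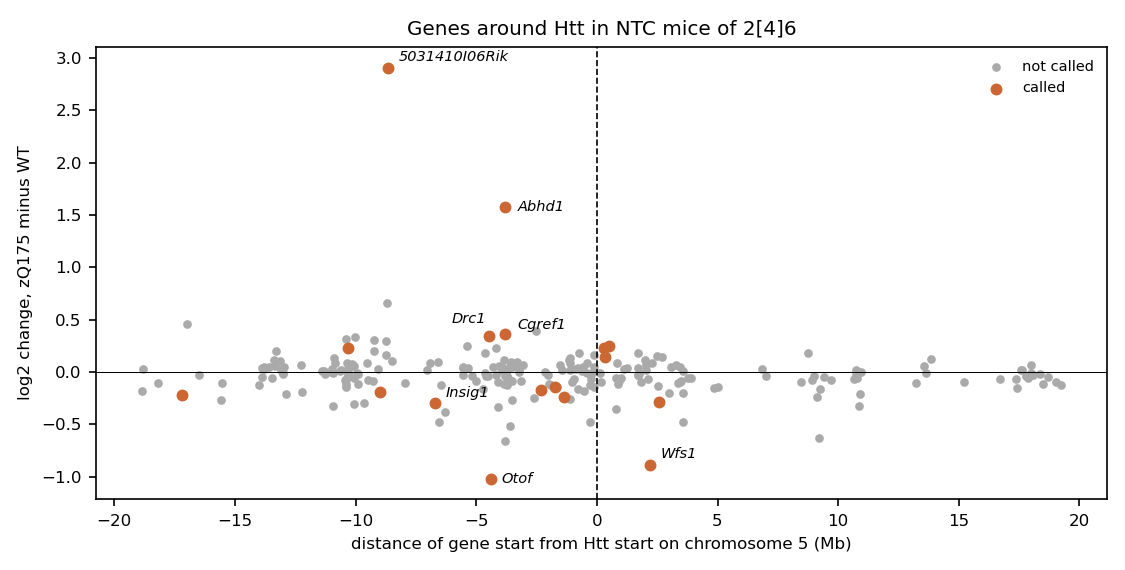
Log2 change, zQ175 minus WT, of the genes tested within 20 Mb of Htt on chromosome 5, by the distance of their start from that of Htt (orange called, grey not called, dashed line Htt). 5031410I06Rik at 2.91, Abhd1 at 1.58 and Otof at -1.02 lie on 1 side of Htt and Wfs1 at -0.89 on the other.

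The same genotype contrast in untreated mice of 2[4]6, which shares no library with it, was set beside it. Of the 867 calls, 843 had the same sign in untreated mice (97.2%, against 68.5% of all genes), and 397 were also called there in the same direction: 45.8% of the NTC calls and 57.7% of the 688 untreated calls (4.15% of genes tested). Genes raised in NTC mice had a median log2 change of 0.22 there and 0.16 in untreated mice, and lowered genes -0.25 and -0.19; genes called in untreated mice had in turn smaller medians in NTC mice (0.20 against 0.26, and -0.22 against -0.24). Among named genes, Wfs1 changed by -0.89 ± 0.11 in NTC and -0.95 ± 0.11 in untreated mice, Penk by -0.75 and -0.79, and Grin2a by -0.72 and -0.43. The difference between the contrasts was called for 0 of 16575 genes (0%) with edgeR and for 2 with DESeq2. In edgeR 411 genes had an unadjusted p under 0.05, a smaller share than the 0.05 that chance alone would give. The absence of edgeR calls does not show that the contrasts are equal. The smallest adjusted p was that of Zfp366, a zinc finger gene (0.145), with log2 changes of -0.62 in NTC and 0.52 in untreated mice, at 1.303 ± 0.435 CPM in WT and 0.85 ± 0.15 in zQ175 NTC mice. Across the 13158 genes with a mean log2 CPM of at least 1, the changes in the contrasts had a Pearson correlation of 0.66, as a description over genes.

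**Figure D5:**
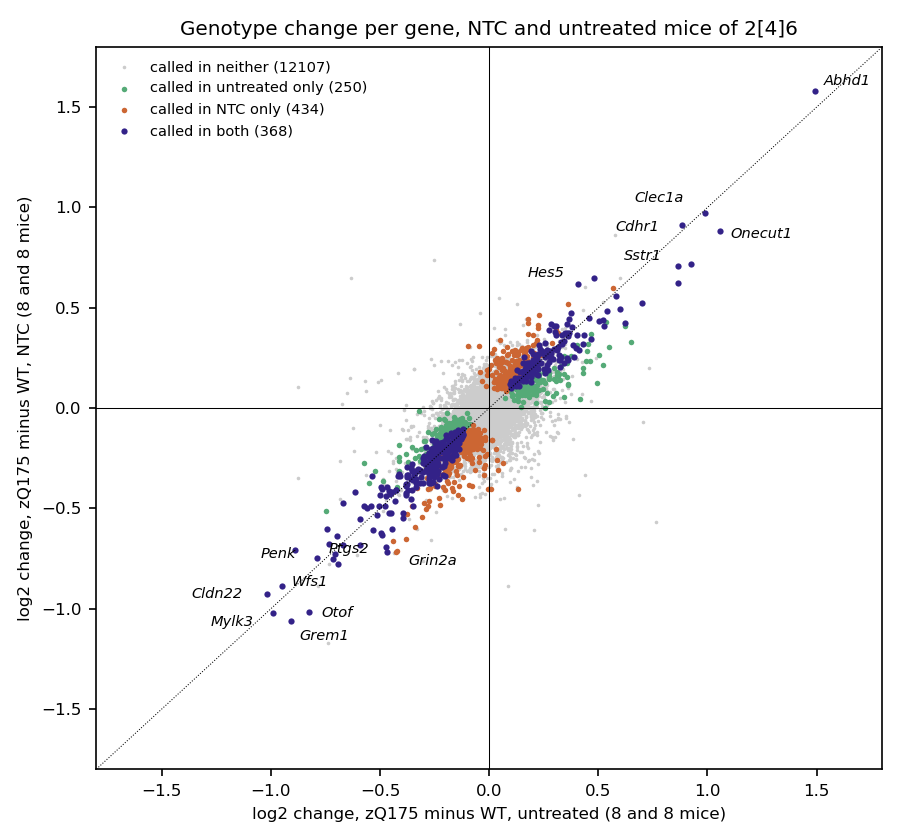
Each point is 1 gene with a mean log2 CPM of at least 1, placed by its log2 change in untreated mice (horizontal) and in NTC mice (vertical), 8 zQ175 minus 8 WT mice each; the dotted line marks equal changes and colours show where a gene was called. The 368 genes called in both lie along the line, from Grem1 and Cldn22 to Abhd1.

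Females and males did not differ in the genotype change of any gene past the threshold: 0 of 16575 genes (0%) were called with edgeR, 3 with DESeq2, and 1248 had an unadjusted p under 0.05 (smallest adjusted p 0.582). Wfs1 changed by -0.67 in females and -1.11 in males, and Grin2a by -0.44 and -1.04, differences that were not called. Correlation of the change with transcript length was -0.06 in females and -0.20 in males.

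At 10 months of age, NTC mice of other regimens offered a later view, in other animals. The regimens are 6[4]10, treated once at 6 months, and 2.6[8]10, treated at 2 and 6 months. Of 866 genes called at 6 months and tested in all regimens, 814 had the same sign in 6[4]10 (94%) and 815 in 2.6[8]10 (94.1%), against 62.1% and 62.9% of all genes, and 505 and 489 were also called there (background 13.8% and 12.3% of genes called). The lowered genes had medians of -0.25 at 6 months and -0.28 and -0.27 at 10 months, the raised genes 0.22, 0.14 and 0.15. The genes were chosen by their calls at 6 months, which favours larger changes at that age only. A course with age cannot be read from these medians. The difference from 6 months was called for 26 of 16627 genes in 6[4]10 (0.156%; 18 positive, 8 negative) and for 4 in 2.6[8]10 (0.0241%). Foxd2 and Skor1, developmental factors, differed in both. Foxd2 had 3 to 8 reads in each WT library at 6 months and 5 to 16 in each zQ175 library, a log2 change of 0.85 that was not called, and changes of 5.33 and 5.20 at 10 months. Skor1 had 2 to 10 reads in WT and 1 to 21 in zQ175 (1.03, not called), against 6.02 and 5.55, and Pax2 5 to 21 and 9 to 50 (0.99, not called), against 4.00 and 3.39. Adgrl4, an adhesion receptor of endothelial cells, changed by -0.41 at 6 months and by 0.27 and -0.30 at 10 months, and Tfcp2l1, a transcription factor, by -0.35, 0.50 and -0.14. Ifi44, an interferon-induced gene, and Zfp128 were the other genes that differed in 2.6[8]10. Age, time since treatment and the animals differ together between the regimens and cannot be told apart.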

How the data were processed

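The deposited table holds expected counts per gene, which the authors made with RSEM on GRCm38, per the submitters' processing notes; the sources used here name no version, aligner or annotation release. The values were rounded to whole numbers when they were read in, before any test. Of 41135 features, 41128 are mouse genes; the other 7 were left out of the tests (4.9e-06% of the counts of the 16 libraries). Names and positions came from GENCODE vM21 (40254 genes found). The 64 libraries of 2[4]6 (8 groups of 8) came from zQ175 and WT mice, each untreated or given NTC, HTT-10150 or HTT-634.486. They were filtered with filterByExpr, which left 16575 genes, and scaled with TMM factors. Tests used edgeR 4.0.16 (glmQLFit, glmQLFTest) in a model of group and sex, with 1 estimate of the spread shared by all 64. Genotype by sex used cells of group and sex, and differences between regimens all 192 libraries (16627 genes). Benjamini-Hochberg adjustment ran over all genes, and calls are at an adjusted p under 0.05. The standard error is the size of the log2 change over the root of F. Htt was compared over all 12870 splits. Alternatives used DESeq2 1.42.0 and limma 3.58.1 (voom), other scalings, filters and left-out libraries.

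On simulated data from these libraries (16498 genes, 50 changed per size), 56% of genes changed 1.25-fold, 80% of 1.5-fold, 92% of 2-fold raised and 86% of those lowered to 0.5 were called, with 6 unchanged genes called. The p-values measure the spread between mice.

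Named genes are Htt; the 10 most raised and 10 most lowered called genes whose sign was shared by the sexes and whose mean log2 CPM was 1 or more; the 10 of smallest adjusted p; up to 4 called members per list, or up to 2 where none was called; up to 5 per difference test; called genes within 10 Mb of Htt with a log2 change of at least 0.5; and markers of tissue carried over in dissection. Other genes, such as further members of a list, neighbours of Htt and Zfp366, are named after their values were seen. The libraries, lists and rule were chosen with earlier results of these data known. Of 1100 list entries 1 matched no gene. Some members of the lists are counted but not reported here by name.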

Additional observations from a re-analysis of the deposited data

Results flagged for a closer look

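In 5 of 56 groups of 8 libraries (28 named genes, each in WT and in zQ175) 1 library lay far from the other 7 by Dixon's criterion; chance flags about 1 group in 20. These were Abhd1 in zQ175 male_1 (3.08 CPM, next 5.04), Trhr in WT male_1 (3.17 CPM, next 2.40), Pex5l in zQ175 male_1 (224.7 CPM, next 192), Neurod6 in WT female_3 (259 CPM, next 227) and Ptgs2 in WT male_1 (26.96 CPM, next 30.3).

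The genotype change differed between regimens, by the test of the difference itself, for 26 genes in 6[4]10 and 4 in 2.6[8]10. The differences from 2[4]6 on the log2 scale in 6[4]10 were 4.48 for Foxd2, 4.99 for Skor1, 0.85 for Tfcp2l1, 3.01 for Pax2 and 0.68 for Adgrl4. In 2.6[8]10 they were 4.52 for Skor1, 4.35 for Foxd2, 1.88 for Ifi44 and 0.46 for Zfp128.

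Outside the gene tests, 23 reads of the zQ175 libraries and 0 of the WT libraries were assigned to the separate Htt entry ending in HD.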

How the results depend on the processing

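The 867 calls (373 raised, 494 lowered) became 644 with the replicate number as a block; same-numbered mice deviated together in some pairs and apart in others (correlations from -0.35 to 0.17), so the numbers were not taken to pair the mice. Other scalings, tools, filters and terms gave 662 to 1023. Leaving out 1 library gave 635 to 885 calls (280 to 399 raised, 355 to 530 lowered). Leaving out both sexes and genotypes of 1 number, which removes 4 of the 16 libraries, gave 326 to 666 calls. Of these 183 to 359 were lowered, and the lowest, without number 4, had 183 of 326. The libraries numbered 4 are also the only ones of the 16 with the letter K in their names. With the letter as a covariate 896 genes were called. Without the 5 libraries high in choroid plexus transcripts, an alternative chosen after seeing the data, 300 genes were called (105 raised, 195 lowered), 292 of them shared with the full set in direction; all 867 kept their sign, with a median ratio of 1.002 to the full change, and fewer libraries were tested. The other alternatives chosen after seeing the data were the choroid plexus level as a covariate (1061) and the length trend removed (870). The difference between NTC and untreated mice had 2 calls with DESeq2, and that between sexes 3, against 0. The regimen differences were called for 44 genes (limma-voom) and 90 (only the 4 NTC groups) instead of 26, and for 33 (only the 4 NTC groups) instead of 4; the cause was not tested. Htt was 16.7 to 20.9% lower without 1 library. Of 27 named genes from the most changed, the smallest p-values and the Htt region, 21 were called under all 33 settings and 0 changed sign. At this depth and n, small changes are missed.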
